A study of Gallus gallus with 2 samples.

Results

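The genes described here encode molecular chaperones and the factors that switch them on: the HSP, DNAJ and HSF genes and the subunits of the CCT chaperonin. They were taken from the array's gene annotation by symbol, as every gene that starts with HSP, DNAJ or HSF, CCT followed by a digit, and TCP1. The endoplasmic reticulum chaperones HSPA5, HSP90B1 and DNAJB9 and the matrix proteoglycan HSPG2 were left out. This gave 74 genes with 144 probe sets, of 13009 genes with 27168 probe sets on the array. Not all of them belong to the cytosol. Of the 65 genes that could be measured, 9 are known mainly from mitochondria and 10 from the endoplasmic reticulum. A further 3, HSPB11, HSPBAP1 and HSF2BP, share only a part of the name.

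RNA came from DT40, a chicken B lymphoma line from the bursa of Fabricius, grown at 38 °C in both groups, which is not a heat shock for avian cells. One array held RNA of a wild-type clone. The other held RNA of a clone that lacked both genes of the histone variant H2A.Z: the H2A.Z-2 gene had been deleted constitutively, and H2A.Z-1 was made only from a transgene silenced with tetracycline (2 mg/ml) for 3 days before RNA was taken. The labels do not settle whether the wild-type cells also received the drug, so drug, clone and genotype cannot be told apart. Since each group has 1 array, differences have no replicate check, nothing was tested, and precision is limited by that number. In these bulk samples fewer cells of a kind and less RNA per cell cannot be told apart.

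Chaperones bind proteins that are not folded and keep them from aggregating. HSP70 proteins hold short stretches of a client in a cycle driven by ATP, J-domain proteins (the DNAJ family) bring clients to HSP70 and speed up its ATP use, and HSP110 proteins exchange its nucleotide. HSP90 acts later on kinases, receptors and other signalling proteins, and the ring-shaped CCT complex, also called TRiC, folds actin and tubulin. Heat shock factors bind the promoters of many of these genes when unfolded proteins accumulate, and in DT40 cells the avian factor HSF3 is known to be needed for full heat induction.

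Each value is a MAS5 signal, a brightness on a linear scale that MAS5 computes for a probe set. Each gene is given by its brightest probe set, judged by the mean log2 signal over both arrays, and log2 ratios are double knockout minus wild type. A gene counted as measured if either array had it above a floor of 58.3, which held for 9540 genes. Where 1 array was under the floor, the ratio is taken against the floor and the fold is written "at least". Both targeted genes were far lower, with H2A.Z-1 going from 27331 in wild type to 387 in the knockout and H2A.Z-2 from 18244 to 17.6. Whether their probes lie inside the deleted parts, or detect the transgene, was not examined. Of 10 B cell markers on the array, 9 were above the floor on both arrays and BLK was under it on both. The signals of all 10 summed to 47137 in wild type against 28304 in the knockout. The marker lists of T cells, erythroid cells, myeloid cells and fibroblasts summed to between 35.3 and 566 in wild type and between 132 and 755 in the knockout. Of these lists, 6, 1, 4 and 5 genes were named on the array, and the erythroid sum is that of HBAD alone. Above the floor were 3, 0, 2 and 3 of them in wild type and 1, 1, 2 and 3 in the knockout. Among the listed T cell markers, CD8A was above it on both arrays (94.4 and 109) and CD4 under it on both (5.51 and 3.74). CD3E was above it in wild type only (90.2 and 8.50). The T cell gene CD3D, which was not on the list, was far brighter and fell from 12407 to 4162. The log2 ratio of 3′ to 5′ signal, a sign of RNA length, went from 0.30 to 0.55 for the elongation factor control and from 0.037 to 0.098 for GAPDH. The part of these differences in the values below was not tested.

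Most chaperone transcripts, like most measured genes, differed by less than 1.5-fold between the arrays. Of the 65 measured genes, 55 (84.6%) lay within 1.5-fold of wild type, beside 71.5% of all measured genes. The members were brighter, with 40 of the 65 at a mean signal of at least 1000, beside 3700 of all 9540. At least 1.5-fold higher were 3 genes, DNAJB4, HSPB9 and HSPB7L, beside 12.6% of all measured genes. At least 1.5-fold lower were 7 genes, beside 15.9% of all: HSPB11, HSPBAP1, HSF2BP, DNAJC28, DNAJC27, DNAJC30 and HSPB7. None was at least 2-fold higher, beside 3.94% of all, and 3 were at least 2-fold lower, beside 6.71%. The median log2 ratio of the 65 genes was 0.097, against 0.017 for all measured genes, and the median size of the ratio, whatever its sign, was 0.29 against 0.35. The higher median was not kept under every scaling. It was 0.0092 against 0.019 after quantile normalization and 0.015 against 0.016 after loess. Closest to the 1.5-fold threshold were DNAJC30 just past it (1.502-fold lower) and DNAJB2 just short of it (at least 1.49-fold lower).

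**Figure D1:**
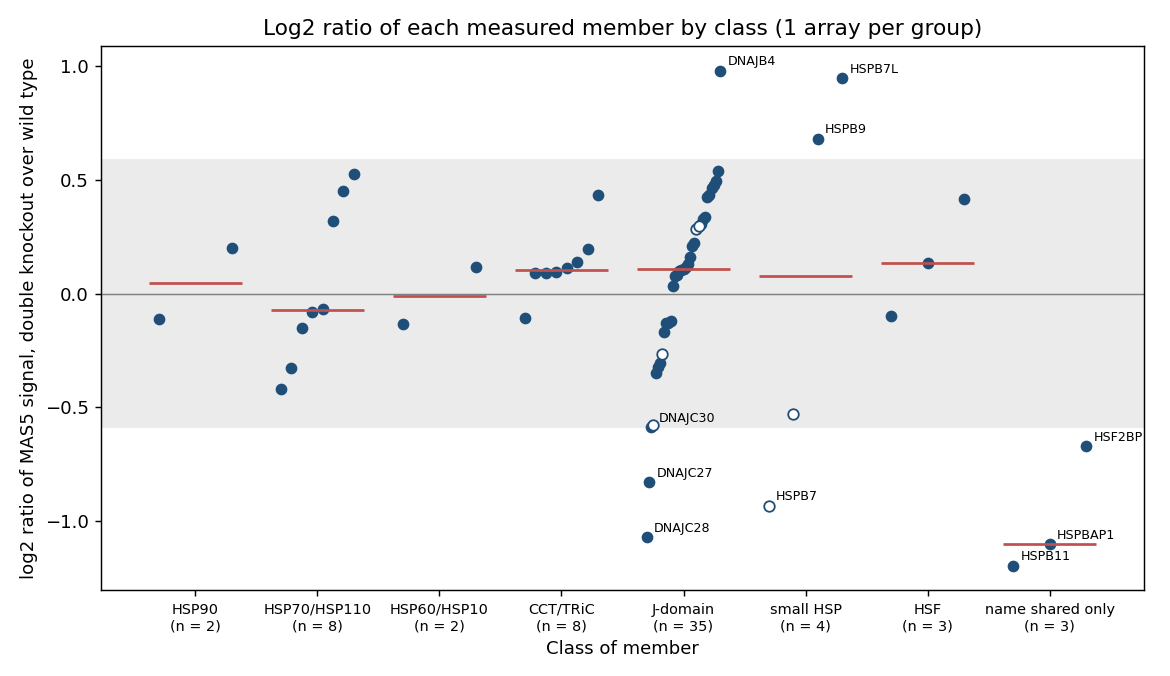
Log2 ratio of MAS5 signal, double knockout over wild type, for the 65 measured genes, grouped by class along the horizontal axis. Filled points are above the floor on both arrays, open points on 1 array only, red bars are class medians, and the grey band is 1.5-fold either way. The 10 named genes outside the band are J-domain genes, small HSPs and the 3 genes that share only a name.

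Small differences went with high signal. Of the 40 genes with a mean signal of at least 1000, only DNAJB4 was at least 1.5-fold apart, beside 17.5% of the 3700 genes on the array in that range. With a mean signal of 200 to 1000, 4 of 10 were at least 1.5-fold apart, beside 36.1% of 2471 genes. Under 200 it was 5 of 15, beside 35% of 3369 genes. In the lower ranges the genes were therefore near the background, and the difference from it lay at high signal. The range of at least 1000 has no upper limit, and genes were not matched for signal within it. The part of brightness in that difference was not tested. These ranges were set after the values had been seen. The precision also changed with signal: between probe sets of the same gene, the SD of a log2 ratio was 0.24 where the dimmer one had a mean signal of at least 1000 (957 genes), 0.35 where it was 200 to 1000 (1377 genes) and 0.49 where it was under 200 (1176 genes). This SD holds probe error and differences between transcripts, not the spread between cultures.

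**Figure D2:**
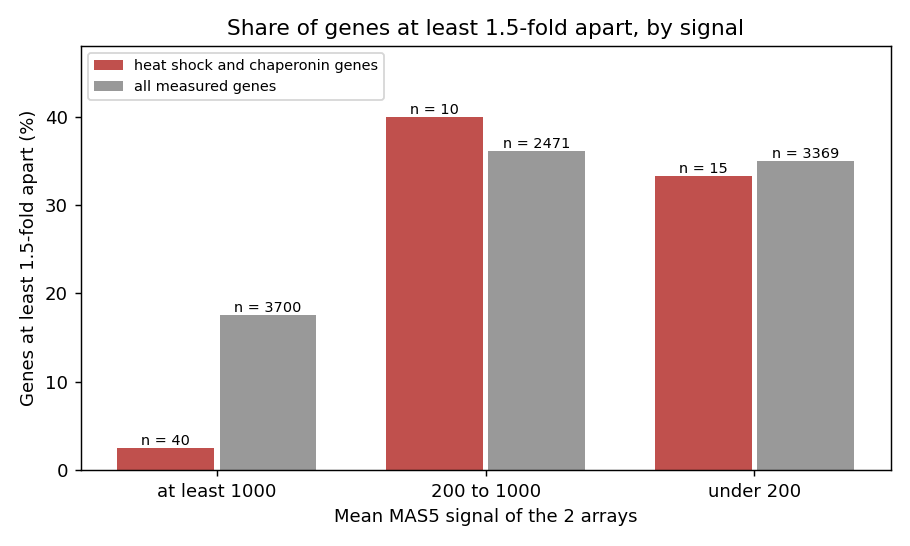
Percent of genes at least 1.5-fold apart between the arrays in either direction (vertical axis), by range of mean MAS5 signal (horizontal axis), with red bars for the heat shock and chaperonin genes, grey bars for all measured genes, and the number of genes above each bar. At a signal of at least 1000 the red bar stands for 1 gene of 40, and the grey bar is at 17.5%.

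**Figure D3:**
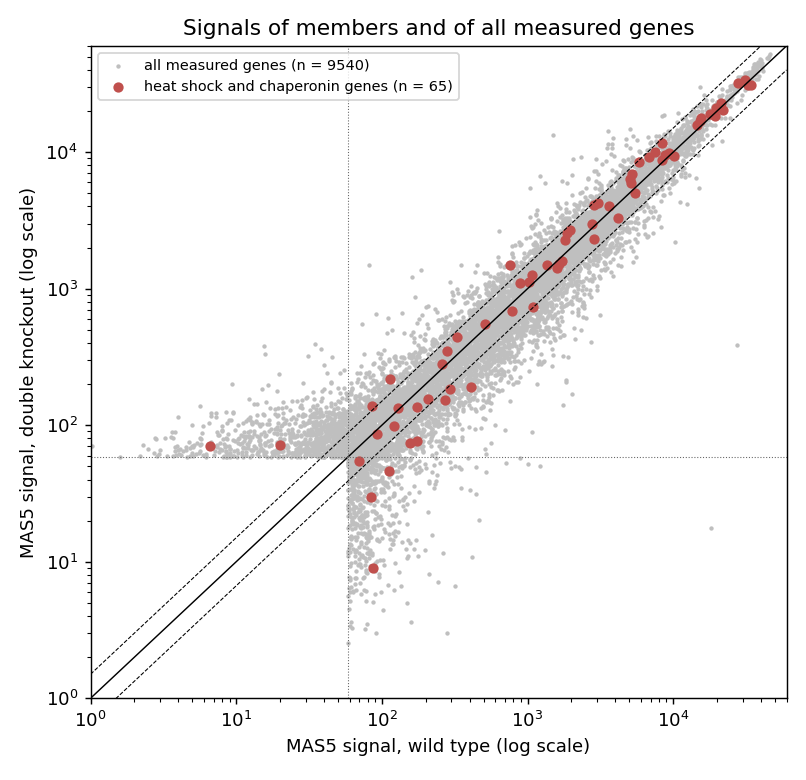
MAS5 signal in wild type (horizontal) and double knockout (vertical), both on log scales, for all 9540 measured genes in grey and the 65 heat shock and chaperonin genes in red. The solid line is equality, dashed lines are 1.5-fold either way, and dotted lines are the floor of 58.3. At high signal the red points run along the solid line.

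The HSP90 genes lay on either side of equality. HSP90AA1, the heat-inducible cytosolic HSP90, went from 27920 in wild type to 32086 in the knockout, 1.15-fold higher, and its other probe set went the other way (22781 to 20947). HSP90AB1, the constitutive one, went from 10090 to 9339, 1.08-fold lower. Both ratios were smaller than the SD between probe sets.

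Among HSP70 and HSP110 genes, 8 were measured and none was 1.5-fold apart. All but HSPA13 had a mean signal of at least 1000, where 17.5% of all measured genes were that far apart. HSPA8, the constitutive cytosolic HSP70 that also strips clathrin from vesicles, went from 32847 to 31056. HSPA9, the HSP70 of the mitochondrial matrix, went from 19366 to 18493, and its other probe set went the other way, from 5675 to 6684 (0.24). The log2 ratios of the brightest probe sets, -0.081 and -0.067, were inside the SD between bright probe sets. HSPA2, an HSP70 best known in mammals from male germ cells, went from 1876 to 2564, 1.37-fold higher on its single probe set. The HSP110 genes, which recharge HSP70, did not share a direction. HSPH1 went from 1822 to 2271 (1.25-fold higher) and HSPA4 from 4165 to 3317 (1.26-fold lower, its other probe set from 1628 to 1339). HSPA4L went from 2868 to 4123, 1.44-fold higher, but its other probe set fell by 0.33 on the log2 scale (1454 to 1157). HSPA14, which acts at the ribosome, went from 1583 to 1427, while its other probe set was above the floor in the knockout only, from 45.7 to 84.9 (at least 1.46-fold higher). HSPA13, an HSP70 of the endoplasmic reticulum, went from 208 to 156. HSPA12A was under the floor on both arrays. As a class the 8 genes had a median log2 ratio of -0.074. It turned to 0.091 when each gene was given the median of its measured probe sets. Without probe sets that several transcripts share it was 0.28, but over fewer genes. HSPA8 and HSPA13, both lower, then had no measured probe set left.

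HSPD1 and HSPE1 encode the HSP60 ring and the HSP10 lid of the mitochondrial chaperonin, and they are neighbours on chromosome 7 of the chicken reference. In mammals this pair is transcribed from a shared promoter. HSPE1 went from 33987 to 30954, 1.10-fold lower. HSPD1 had probe sets that disagreed, with 31089 to 33654 (1.08-fold higher) on one and 23273 to 15784, a log2 ratio of -0.56, on the other. The pair thus showed no common direction as deposited, and after quantile normalization or loess both brightest probe sets were lower, at -0.016 and -0.29 or at -0.018 and -0.27 for HSPD1 and HSPE1.

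The 8 measured subunits of CCT kept close together. CCT2 went from 15263 to 16815, CCT4 from 17766 to 18891, CCT6A from 15415 to 17666 and CCT7 from 14558 to 15740. CCT8 went from 19655 to 21008 and TCP1, the first subunit, from 21360 to 22742. These 6 subunits had log2 ratios between 0.089 and 0.197. Among the brightest probe sets that of CCT5 was the only lower one (21953 to 20378, -0.11), but a second probe set of CCT4 was lower too (8663 to 7541, -0.20). The ratio of CCT3 was the highest of the 8 brightest probe sets (6810 to 9203, 0.43). The SD of the 8 log2 ratios was 0.15, beside the 0.24 found between bright probe sets of the same gene. These SDs are at unlike signal. The 8 probe sets had mean signals of 7916 to 22040, while the 0.24 covers all pairs with the dimmer one at 1000 or more. The median was 0.10, and this slight upward shift was not kept under every scaling, since it was 0.003 after quantile normalization (5 higher and 3 lower) and 0.0002 after loess (4 and 4). The loess curve, fitted to probe sets that both arrays had above the floor, had a median of 0.0998 at signals of at least 10000. Dimmer probe sets of CCT8 and CCT6A moved apart, with one of CCT8 going from 102 to 62.3 and one of CCT6A from 69.8 to 127.

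**Figure D4:**
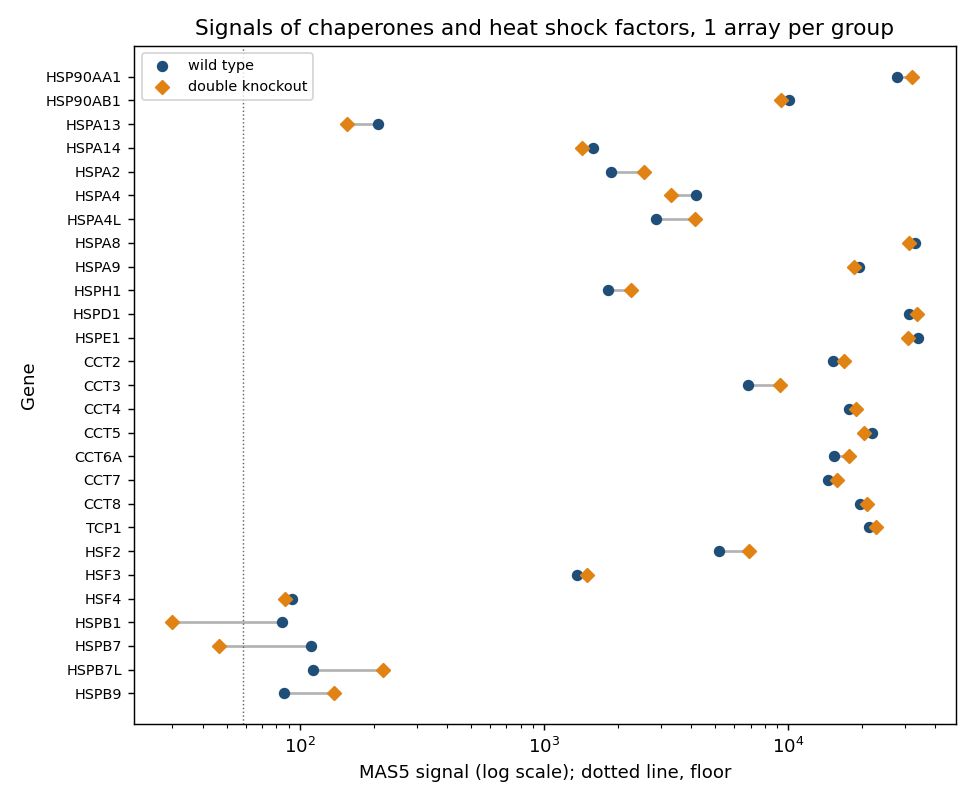
MAS5 signal on a log axis for each measured HSP90, HSP70/HSP110, HSP60/HSP10, CCT, HSF and small HSP gene, with circles for wild type, diamonds for the double knockout and a dotted line at the floor of 58.3. The symbols of the 8 CCT subunits and of HSPA8, HSPA9, HSPD1 and HSPE1 lie nearly on each other except for CCT3, while those of the small HSPs lie apart and near the floor.

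The J-domain genes were the most numerous, with 35 of 39 measured, and they held both small and larger differences. As a class, 23 were higher and 12 lower, beside 4913 higher of all 9540 measured genes. The median log2 ratio was 0.11, and 0.035 when each gene was given the median of its measured probe sets. Past 1.5-fold there were 1 higher and 3 lower of the 35, beside 12.6% and 15.9% of all measured genes. DNAJB4, a cytosolic partner of HSP70, stood highest of all the genes. Its signal went from 760 to 1498, 1.97-fold higher, and its other probe set above the floor on both arrays went from 76.9 to 114. DNAJB6, which suppresses the aggregation of polyglutamine proteins, went from 5797 to 8432, 1.45-fold higher, with its other probe sets at 0.10 and 0.14 on the log2 scale. DNAJB14, a membrane protein of the endoplasmic reticulum, went from 3635 to 4063, with its other probe sets down to -0.19, and DNAJB11, a soluble partner of HSPA5 there, from 1645 to 1513.

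The DNAJA genes, the closest relatives of bacterial DnaJ, were all higher as deposited, by small amounts. DNAJA4 went from 7498 to 10061 (1.34-fold), DNAJA3, the mitochondrial one, from 5047 to 6378 (1.26-fold), DNAJA1 from 5122 to 5927 (1.16-fold) and DNAJA2 from 9356 to 9862 (1.05-fold). Each of the 4 genes had another probe set with a ratio below 0, and after loess DNAJA2 was at -0.0002 and the other 3 were still higher. The direction of this group therefore rested on which probe set was read.

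The DNAJC genes, which share little beyond the J domain, were the most varied. DNAJC9, a chaperone of histones H3 and H4, went from 8439 to 11762, 1.39-fold higher. Its other probe sets went from 3887 to 4819 and from 1433 to 1571, so that all 3 were higher, by 0.13 to 0.48 on the log2 scale. DNAJC2, a ribosome-associated J protein that also binds chromatin carrying ubiquitylated H2A, went from 5471 to 4996. DNAJC1, a membrane protein of the endoplasmic reticulum, went from 8813 to 9472, and DNAJC8, a spliceosome protein, from 8343 to 8834. The other probe set of DNAJC8 went the other way and farther, from 2416 to 1860 (-0.38). DNAJC5, the cysteine string protein of vesicles, went from 3032 to 4276 (1.41-fold higher, with another probe set at -0.26). DNAJC14 went from 1943 to 2681 (1.38-fold higher). In the endoplasmic reticulum DNAJC3, which inhibits the stress kinase PERK, went from 883 to 1108, and the disulfide reductase DNAJC10 from 2767 to 2983. Each had another probe set that was lower, at -0.14 for DNAJC3 and -0.13 for DNAJC10 on the log2 scale.

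The larger differences among DNAJC genes were downward and on dimmer probe sets. DNAJC28 went from 156 to 74.4, 2.10-fold lower on a single measured probe set. DNAJC27, a small GTPase with a J domain, went from 271 to 153, 1.78-fold lower, and its other probe set was above the floor in wild type only (71.7 to 32.6). DNAJC30, a mitochondrial protein linked to respiratory complex I and ATP synthase, went from 1098 to 731, 1.502-fold lower. Of its other probe sets, 1 went from 373 to 192 and 1 from 410 to 278, so that all 3 above the floor on both arrays were lower. The last went from 59.7, just above the floor, to 21.6, under it, at least 1.02-fold lower. DNAJC18 had 5 probe sets that ran from -0.73 to 0.73 on the log2 scale, with the brightest at 1731 in wild type and 1583 in the knockout.

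DNAJC11, DNAJC15 and DNAJC19 are given below with the members known from mitochondria. The remaining 12 measured J-domain genes had log2 ratios from -0.58, the bound of DNAJB2 (86.9 to 9.07), to 0.43, that of DNAJC12 (329 to 444). They included DNAJC24, which makes the diphthamide of elongation factor 2 (130 to 133), DNAJC21, which acts in the maturation of the large ribosomal subunit (260 to 279), and DNAJC13, an endosomal protein (1073 to 1251). DNAJB5 and DNAJB8 were above the floor in the knockout only, at 71.0 and 71.6, and DNAJC22 in wild type only, at 70.0. Every J-domain gene past 1.5-fold is named above, so by that choice none of the 12 could pass it.

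Members known from mitochondria were mostly on the lower side, with 7 of 9 lower, beside 4627 of all 9540 measured genes, and a median log2 ratio of -0.31, against 0.11 for the 10 known from the endoplasmic reticulum. HSPA9 and DNAJC11, counted as lower by their brightest probe set, each had another probe set that was higher. Mitochondrial genes of the co-chaperone list described below did not share this side. LONP1 (0.41), TRAP1 (0.40), GRPEL2 (0.35), CLPX (0.11) and GRPEL1 (0.033) were higher, while the measured probe sets of GRPEL1 ran from -0.041 to 1.09. The import proteins TOMM70 (-0.30) and TOMM34 (-0.72) were lower. Besides those above, the lower ones included DNAJC19 (173 to 136) and DNAJC15 (122 to 98.4), both tied to the import motor of the inner membrane, and DNAJC11 (2872 to 2298, with the other probe set at 0.19). The median of the mitochondrial genes was between -0.31 and -0.29 under the 3 scalings and as deposited. These groupings by place were made after the values had been seen. Of the 9, DNAJC28, DNAJC19 and DNAJC15 had mean signals under 200, where the SD between probe sets was 0.49.

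Small heat shock proteins, which hold unfolded proteins without using ATP, were dim and went both ways. HSPB9 went from 85.8 to 137, 1.60-fold higher, and its other probe set from 51.2, under the floor, to 129, at least 2.22-fold higher. HSPB7L went from 113 to 218, 1.93-fold higher, on a probe set shared between transcripts or genes. HSPB1, the classic heat-inducible small HSP, went from 84.1 to 29.8, under the floor, at least 1.44-fold lower. HSPB7, known from heart muscle, went from 111 to 46.4, at least 1.91-fold lower. HSPB2, HSPB3 and HSPB8 were under the floor on both arrays. All values of this class lay where the SD between probe sets was 0.49.

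The 3 measured heat shock factors were within 1.5-fold, as were 71.5% of all measured genes. HSF3 went from 1365 to 1500, 1.10-fold higher, but one of its dimmer probe sets went from 109 to 51.5, at least 1.87-fold lower. HSF2, a factor of development and of proteasome stress, went from 5180 to 6918, 1.34-fold higher, with its other probe set from 1510 to 1341. HSF4, known from the lens, was near the floor (92.9 to 86.6) and HSF5 under it on both arrays. HSF1 was not analysed here. Neither HSF3 nor HSF2 had a change that all of its probe sets shared in direction and that passed 1.5-fold.

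The 3 genes that share only a name were all lower, beside 4627 of all 9540 measured genes. All 3 were past 1.5-fold, beside 15.9% of all. In the range of HSPBAP1 and HSF2BP, a mean signal of 200 to 1000, 1447 of 2471 genes were lower, 626 of them past 1.5-fold. HSPB11, which is the intraflagellar transport protein IFT25 rather than a chaperone of the cytosol, went from 176 to 76.7, 2.29-fold lower. Its mean signal was under 200, where the SD between probe sets was 0.49. HSPBAP1, named for binding a small HSP, went from 411 to 191, 2.15-fold lower. HSF2BP, which binds HSF2 and the repair protein BRCA2, went from 295 to 185, 1.59-fold lower. These 3 genes, each with 1 probe set, and the members known from mitochondria made up 5 of the 7 at least 1.5-fold lower. Without them and the genes of the endoplasmic reticulum, 2 of 43 measured genes were at least 1.5-fold lower and 3 higher. That is 11.6% of them in either direction, beside 28.5% of all measured genes. The exclusion was chosen after the values had been seen, so the smaller count of lower genes follows from that choice. These 43 genes were not matched to all genes for signal.

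Probe sets of the same gene set a limit on what can be read from small ratios. Of the 29 genes for which both arrays had several probe sets above the floor, 18 had probe sets on both sides of 0. In 8 of the 29, probe sets were at least 1.5-fold apart from each other. Over the array, 24.1% of 3510 such genes had their 2 brightest probe sets that far apart, while the 8 are counted over all probe sets of a gene. The share on both sides of 0 was not computed for all genes. The 11 with 1 common direction included DNAJB4, DNAJC9, DNAJB6 and DNAJC7 on the higher side and HSPA4, DNAJC30 and DNAJB12 on the lower side. A further 33 genes had only 1 measured probe set. Of the 144 probe sets, 31 were under the floor on both arrays. The 9 unmeasured genes were DNAJB13, DNAJC5B, DNAJC6, DNAJC17, HSF5, HSPA12A, HSPB2, HSPB3 and HSPB8.

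**Figure D5:**
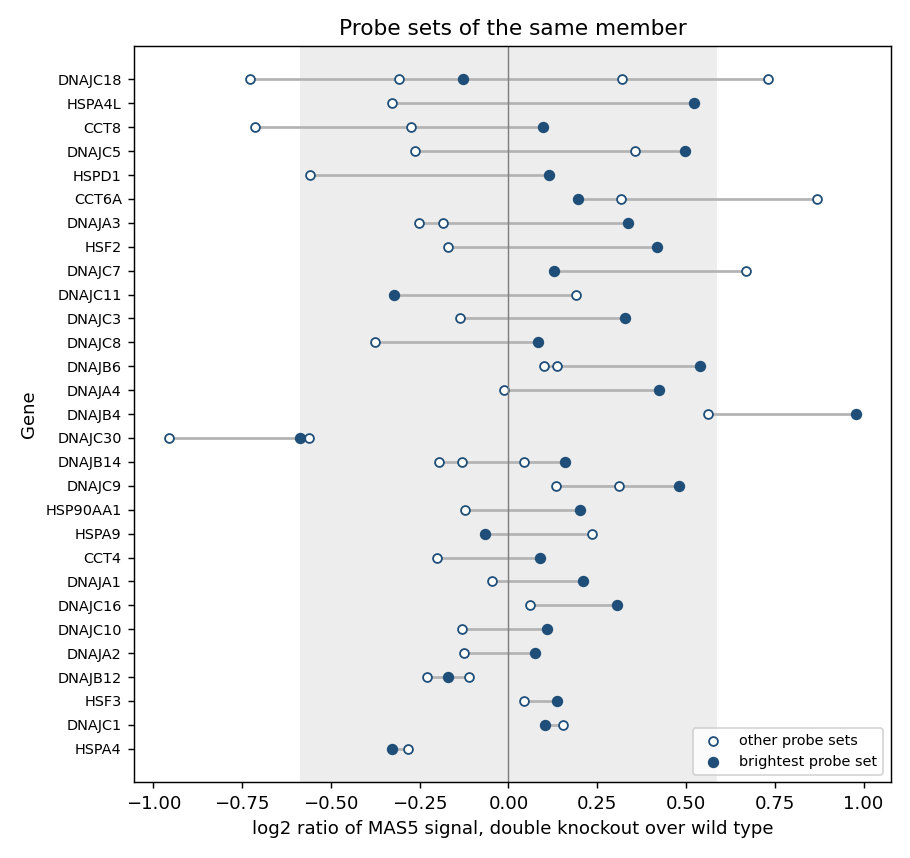
Log2 ratio of MAS5 signal, double knockout over wild type, for the 29 genes with several probe sets that both arrays had above the floor, ordered by their range. Filled points are the brightest probe set, open points the others, and the grey band is 1.5-fold either way. For 18 genes the line crosses 0.

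Co-chaperones outside the rule, which regulate HSP70, HSP90 and CCT, were also mostly within 1.5-fold. Of a list of 54 such genes, 42 were found on the array under these symbols and 38 were measured. A mean signal of at least 1000 was reached by 31 of the 38. Of these 31, 0 were higher and 1 lower past 1.5-fold, beside 17.5% of all genes in that range in either direction. Their median log2 ratio was 0.013, beside 0.049 for all genes there. Over all 38, 0 were higher and 2 lower past 1.5-fold, beside the 12.6% and 15.9% of all genes, and the median was -0.11. The highest were PFDN2, a subunit of prefoldin, which hands clients to CCT (4958 to 7114), the HSP70 exchange factor BAG1 (1244 to 1700), the mitochondrial protease LONP1 (3498 to 4636) and the mitochondrial HSP90 TRAP1 (6118 to 8059). The lowest were TOMM34, which links HSP70 and HSP90 to mitochondrial import (1778 to 1080, 1.65-fold lower), BAG5 (430 to 268, 1.60-fold lower), HIKESHI, the nuclear importer of HSP70 (3268 to 2221), and PDCL3, which binds CCT (2248 to 1534). The prefoldin subunits did not share a direction by brightest probe set, and PFDN2 was the only higher one of those measured. PFDN1 (2789 to 2095), PFDN4 (10697 to 8403) and PFDN5 (-0.11 on the log2 scale) were lower. VBP1, also a prefoldin subunit, went from 77.0 to 10.6, under the floor, at least 1.32-fold lower. The 4 measured probe sets of PFDN1 ran from -0.41 to 0.31. CHORDC1 (1648 to 2164) was higher and STIP1, which joins HSP70 to HSP90, lower (612 to 468).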

How the data were processed

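RNA of 2 DT40 cultures was hybridised to 1-colour Affymetrix arrays, 1 per group. The deposited table holds 1 linear intensity per probe set, which the authors made using MAS5 per the submitters' processing notes. Its version is not given in the sources used here, nor are the scaling target and detection calls. MAS5 scales each array by 1 factor, and both had a trimmed mean of 500.2, so a trend with brightness can remain. Labelling from the 3′ end makes signal depend on RNA length.

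Of 38535 probe sets, 96 were controls, 27178 carried 1 gene symbol and 177 several; the latter, including 1 of DNAJC19, named no gene. All 74 member genes were found by identifier in the RefSeq genes of GRCg7b, with 0 symbols changed, used only for chromosomes and neighbours. Signals under the floor, the 50th percentile of non-control signals, were set to it before log2 was taken. Each gene was given its brightest measured probe set. Named were all measured members outside the J-domain class, J-domain genes 1.5-fold apart or brightest, and the 4 highest and lowest co-chaperones; others were chosen after their values were seen. The members and lists were chosen with earlier results of these data known. Groups came from the genotype labels. Python 3.11.15, numpy 2.4.6, pandas 2.3.3 and statsmodels 0.14.6 were used, and the computation was tested on simulated data. The 9 alternatives were 3 scalings, 2 floors, genes above the floor on both arrays, a pseudocount, and changes of probe set. These changes took the median of each gene's measured probe sets, or left out shared ones (names ending in _s_at, _x_at or _a_at). A further 1 was added after seeing the data.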

Additional observations from a re-analysis of the deposited data

How the results depend on the processing

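The share of heat shock and chaperonin genes at least 1.5-fold apart was below that of all measured genes as deposited and under each of the 10 alternatives, from 4.26% against 22.1% with the floor at the 75th percentile to 27.8% against 39.4% with it at the 25th. The counts depended on the floor: 9 genes were at least 1.5-fold higher and 11 lower at the 25th percentile, and 1 and 1 at the 75th. Leaving out members of mitochondria and the endoplasmic reticulum and those that share only a name, an alternative chosen after seeing the data, left 2 lower. The median of CCT subunits was 0.000203 after loess and 0.00266 after quantile normalization. That of HSP70 and HSP110 genes turned to 0.091 with the median of each gene's measured probe sets. It was 0.28 without shared probe sets and 0.12 in the alternative chosen after seeing the data. The 0.28 leaves out HSPA8 and HSPA13, and the 0.12 leaves out HSPA9 and HSPA13, so neither covers all 8 genes. That of the HSP90 genes turned to -0.058 after loess, -0.070 after quantile normalization and -0.036 with the median of each gene's measured probe sets. In the other 64 of 77 comparisons a median moved by less than 0.1 on the log2 scale without changing sign, or a count stayed within 1.5 times. The median of all measured members was among them, but after quantile normalization or loess it no longer lay above that of all measured genes. The causes were not tested. No paired analysis was possible because each group has 1 array. Signals near the floor limit the small HSPs, HSF4 and several DNAJC genes.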
